A study of Homo sapiens with 30 samples.

Results

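Homologous recombination copies the sister chromatid to mend a broken chromosome, and the Fanconi pathway directs the repair of crosslinks between the DNA strands, in which nucleases cut the crosslink loose and homologous recombination mends the break that follows. A set of 35 genes of these pathways, chosen by name from among the 61471 genes of each deposited table, was followed in the human glioblastoma lines U87 (U87-MG) and U251 (U251-MG) during long exposure to interferon-γ (IFN-γ), the cytokine that activated T and NK cells release. RNA was sequenced in 30 libraries, with 5 groups of 3 in either line. Cells of the Untreated group received no IFN-γ, those of D3, D14 and D28 received it for that many days, and those of D28WO received it for 14 days and were then cultured without it up to day 28. The labels call both lines wild type, give the dose as 1 µg/mL in one field and 1 µL/mL in another, and place the Untreated cultures at day 3, whereas the study's methods give a lower dose and day 0. No Untreated culture of day 14 or 28 was analysed, so exposure and time in culture cannot be told apart at those days. The study describes U87 as mesenchymal-like and U251 as proneural-like and states that neither line was re-authenticated after receipt. The replicates are described as biological, and p-values measure only the spread between these libraries.

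Levels are TPM, transcript abundances scaled for transcript length and for the total of the library, and changes are differences of log2(TPM + 1), called log2 fold changes below. All 35 genes were present in both tables and above the filter of 0.5 TPM on the mean of a line, with levels from 5.81 to 151 TPM in U87 and from 4.94 to 143 TPM in U251. In Untreated cells the highest mean was that of RAD51C in both lines, and the lowest was that of FANCE in U87 (11.3 ± 3.34 TPM, SD, n = 3) and of BRCA2 in U251 (5.39 ± 0.612 TPM). A gene was called when its adjusted p was under 0.05 in limma, with adjustment over all genes tested in that line and comparison (22918 in U87 and 23667 in U251). The tables hold no counts, so the depth of each library cannot be read from them, although the study's methods state a minimum number of reads per sample. In U87, D3 and D14 rest on 2 libraries each, because 2 columns of that table have a common name and were left out throughout.

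In the Fanconi pathway a core complex, which contains FANCA, FANCB, FANCC, FANCE, FANCF, FANCG and the ubiquitin ligase FANCL and is brought to stalled forks by FANCM, attaches ubiquitin to the FANCD2 and FANCI pair. In homologous recombination MRE11, RAD50, NBN, RBBP8 and EXO1 trim the broken end. BRCA1 and BARD1, PALB2 and BRCA2 then prepare the exposed strand for its search of the sister chromatid, with the help of the paralog group RAD51B, RAD51C, RAD51D, XRCC2 and XRCC3, and the kinases ATM and ATR, acting through CHEK2 and CHEK1, hold the cell cycle meanwhile. Because the template is the sister chromatid, many of these genes are known to be transcribed mainly in S phase, under E2F transcription factors.

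Genes known to respond to IFN-γ did not follow the exposure named in the labels in every group. The summed level of 11 such genes, among them IRF1, GBP1, CIITA and IDO1, was 1422 to 1588 TPM in Untreated U87 and 4059 to 4460 TPM at D3, but the U87 libraries labelled D14 held 1426 to 1493 TPM, the level of Untreated cells. The libraries labelled D28WO held 4901 to 5425 TPM in U87, above the 4107 to 4797 TPM of D28, and 8121 to 8637 TPM in U251, where D28 held 8584 to 8892 TPM, although the cytokine had been withdrawn for 14 days. In U251 the sums were 2214 to 2286 TPM in Untreated, 7225 to 7716 TPM at D3 and 4153 to 4222 TPM at D14. B2M, a subunit of HLA class I, made up most of the U251 sums at D28 and D28WO (4937 to 5443 and 5010 to 5378 TPM), and the single genes did not all move like the sum. CXCL10 was at 492 to 521 TPM at D28 and 80.5 to 101 TPM at D28WO in U251, IDO1 at 389 to 411 and 299 to 304 TPM, CD274 at 137 to 165 and 106 to 112 TPM and CIITA at 126 to 139 and 95.9 to 109 TPM, all lower after withdrawal without overlap. GBP2 (227 to 243 and 328 to 364 TPM) and PSMB9 (219 to 230 and 279 to 304 TPM) were higher without overlap. The labels were kept, and directions are given for libraries as labelled. Untreated U87 libraries listed 24223 to 25459 genes above 0, fewer than the 26096 to 28649 of the other U87 libraries, and the median of all genes tested lay between 0.15 and 0.25 (log2) above Untreated in the treated U87 groups. In U251 the number also moved with the groups, with 24450 to 27187 genes in Untreated and 25633 to 26378 at D28WO. It was 26475 to 28365 at D3, 27763 to 29771 at D14 and 28955 to 30246 at D28. The part of these numbers in the results was not tested. Of 7 glial and mesenchymal markers, VIM and CD44 were high in both lines (at least 599 and 394 TPM in every library), SOX2 was at 105 to 176 TPM in U251 and at most 0.411 TPM in U87, and GFAP was at 222 to 1309 TPM in U251 and 2.33 to 19.1 TPM in U87. In U251 their summed level moved with exposure, from 3703 to 3775 TPM in Untreated to 1489 to 1825 TPM at D3, 2578 to 2971 TPM at D14, 1617 to 1835 TPM at D28 and 2108 to 2179 TPM at D28WO, and its part in the results for U251 was not tested. In U87 the sums were 1945 to 2171 TPM in Untreated and 1517 to 1949 TPM in the other groups. Of 6 immune cell markers CD68, a lysosomal gene, was at 214 to 445 TPM in U87 and 76.8 to 168 TPM in U251, and the others, the pan-leukocyte gene PTPRC among them, did not exceed 2.37 TPM in any library. Markers of other cell types also moved with the groups. In U251 the sum of 4 endothelial markers was 35.8 to 49.9 TPM in Untreated and 13.3 to 14.3 TPM at D3 (CDH5 25.2 to 31 and 0.492 to 0.651 TPM), 30.1 to 43 TPM at D14, 20.7 to 22.4 TPM at D28 and 11.2 to 16.4 TPM at D28WO. That of 4 epithelial markers was 64 to 68.3 TPM in Untreated U251 and 25.9 to 44.8 TPM in the other groups, and that of 4 neuronal markers 37.5 to 37.8 TPM and 35.3 to 63.2 TPM. In U87 the neuronal sum was 121 to 130 TPM in Untreated, 121 to 134 TPM at D3, 168 TPM in both D14 libraries, 136 to 175 TPM at D28 and 82 to 101 TPM at D28WO, the epithelial sum 31.7 to 48.4 TPM in Untreated and 33.1 to 60.4 TPM in the other groups, and the endothelial sum at most 8.49 TPM in every library. The part of these markers in the results was not tested.

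Sequences upstream of 3 genes are shown because their RNAs behaved differently in the comparisons below: BRCA2 had the largest rise in U251, FANCD2 rose there under exposure and was lower again in the libraries labelled D28WO, and CLSPN fell by more than 2-fold in those libraries of both lines. They are RefSeq promoters (GRCh38.p14), written 5′ to 3′ from 250 bases before to 20 bases after the start site. BRCA2 lies on the plus strand at chr13:32315258-32315527, FANCD2 on the plus strand at chr3:10026187-10026456 and CLSPN on the minus strand at chr1:35769959-35770228. Capitals mark matches on either strand to an E2F motif (TTTCCCGC, TTTCGCGC, TTTGGCGC or TTTGCCGC), a CCAAT box (CCAAT) or an IFN-γ-activated site (TTCNNNGAA).
BRCA2: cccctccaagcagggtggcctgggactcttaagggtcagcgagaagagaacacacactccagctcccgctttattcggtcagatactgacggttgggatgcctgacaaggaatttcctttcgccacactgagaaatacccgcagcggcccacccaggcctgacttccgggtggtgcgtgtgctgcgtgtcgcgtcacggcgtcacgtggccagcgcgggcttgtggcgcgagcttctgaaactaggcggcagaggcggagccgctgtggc
FANCD2: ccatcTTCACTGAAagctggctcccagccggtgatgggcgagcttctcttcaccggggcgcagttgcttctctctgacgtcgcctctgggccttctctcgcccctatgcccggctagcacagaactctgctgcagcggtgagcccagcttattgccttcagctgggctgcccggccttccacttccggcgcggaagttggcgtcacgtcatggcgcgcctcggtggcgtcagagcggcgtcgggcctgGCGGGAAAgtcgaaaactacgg
CLSPN: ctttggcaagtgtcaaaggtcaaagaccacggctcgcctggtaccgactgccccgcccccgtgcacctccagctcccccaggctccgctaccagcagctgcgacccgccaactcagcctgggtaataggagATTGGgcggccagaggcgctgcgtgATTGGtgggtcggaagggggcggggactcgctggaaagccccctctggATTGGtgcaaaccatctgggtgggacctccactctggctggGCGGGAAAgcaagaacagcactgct
In FANCD2 the capitals near the start are the E2F match, at bases -2 to 6 around the start site, and the others are the match to the IFN-γ-activated site at -245 to -237. In CLSPN the last capitals are the E2F match, at -5 to 3, and the other 3 are CCAAT boxes. The BRCA2 window held neither these nor a cell-cycle homology region (TTTGAA or TTTAAA) nor an interferon-stimulated response element (GAAANNGAA). A RefSeq window was found for 32 of the 35 genes, and in windows of 300 bases an E2F match occurred in 7 of these 32 (21.9%) and in 3.31% of all 35116 promoters of the table, or 4.49% of the 20307 promoters of genes tested. The 7 were FANCA, FANCC, FANCD2, XRCC2, EXO1, TOPBP1 and CLSPN. CCAAT boxes were present in 43.8% of the genes' windows and 34.6% of all promoters, activated sites in 12.5% and 7.66%, response elements in 12.5% and 8.11%, and homology regions in 15.6% and 24.0%. These are counts of letters and were not tested.

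In U251 most of these repair genes were higher during IFN-γ exposure and none was called lower, although with other scalings of the libraries FANCC was called lower at D3 and D28. At D3, 22 of the 35 genes were called higher, when 24.9% of all genes tested were called higher and 16% lower. At D14 it was 21 (background 13.8% higher, 7.31% lower) and at D28 it was 24 (background 25.9% higher, 14.7% lower). The median log2 fold change of the 35 was 0.51 at D3, 0.43 at D14 and 0.47 at D28, and that of all genes tested was 0.13, 0.10 and 0.16. Relative to that shift, 29, 32 and 28 of the 35 lay above the median of all genes. Quantile normalization left 18, 17 and 19 called higher, and median-ratio size factors 15, 17 and 18, and the shares of all genes called under these scalings were not counted. Most changes were under 2-fold. BRCA2 exceeded 2-fold at all 3 times, FANCB at D14 and FANCD2 at D28, and 9.72%, 4.72% and 11.9% of all genes were called higher and beyond 2-fold at D3, D14 and D28. Leaving out 1 library gave 1 to 3 genes beyond 2-fold at each time, with 3 at D3 without D3 replicate 2 and 2 without D3 replicate 3 or Untreated replicate 1 or 2, 1 at D14 without Untreated replicate 1 or 2 or D14 replicate 2, and 1 at D28 without Untreated replicate 2. The 3 comparisons share the same Untreated libraries and are not independent of each other. In bulk RNA a change in the number of cells of a kind, such as cells in S phase, and a change of RNA per cell cannot be told apart.

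**Figure D1:**
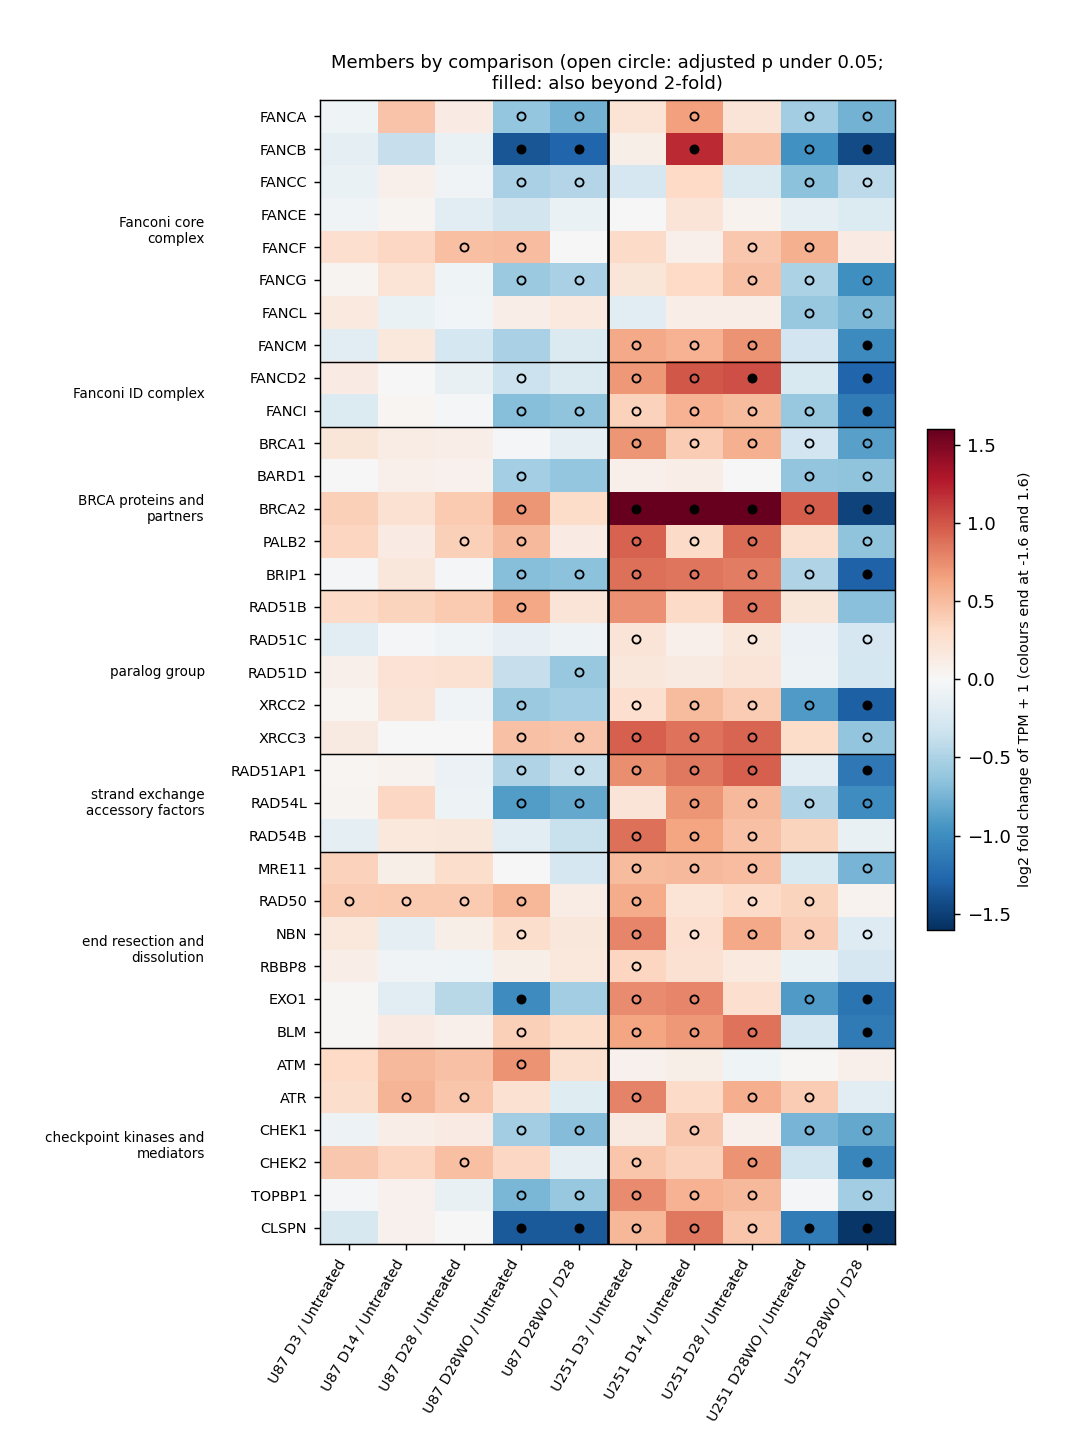
Log2 fold change of each of the 35 genes (rows, grouped by role) in 5 comparisons of each line (columns, with U87 to the left of the thick line); red is higher and blue lower in the first-named group, and circles mark called genes (filled where also beyond 2-fold). In U251 the columns of D3, D14 and D28 hold 22, 21 and 24 circles on red, the column of D28WO against D28 holds 26 on blue, and in U87 most circles lie in the D28WO columns.

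Among BRCA1, BRCA2 and their partners, 4 of 5 genes were called higher at each of D3, D14 and D28 in U251, beside 24.9%, 13.8% and 25.9% of all genes. BRCA2, a core mediator of strand invasion, had 5.15, 6.09 and 4.94 TPM in the 3 Untreated libraries, 37.5, 41.2 and 33.3 TPM at D3, 16.9, 22.2 and 19.4 TPM at D14, 35.1, 35.1 and 31.4 TPM at D28 and 12.2, 12.3 and 10.1 TPM at D28WO. No treated library overlapped the Untreated ones, and the D14 and D28WO libraries lay between Untreated and the other 2 groups. The log2 fold change was 2.58 (SE 0.13, adjusted p = 2.99e-09) at D3, 1.68 (SE 0.13, adjusted p = 1.05e-06) at D14 and 2.45 (SE 0.13, adjusted p = 4.69e-09) at D28. PALB2, the bridge between BRCA1 and BRCA2, was likewise highest at D3 and D28, with 16.7, 15.4 and 13.6 TPM in Untreated, 32, 27.6 and 30.7 TPM at D3, 18.4, 19.5 and 19.2 TPM at D14, 28.3, 31.3 and 28.1 TPM at D28 and 17.4, 20.3 and 17.5 TPM at D28WO. Its log2 fold change was 0.94 (SE 0.10, adjusted p = 6.79e-06) at D3 and 0.31 (SE 0.10, adjusted p = 0.0487) at D14. The D14 call of PALB2 was lost with quantile and with median-ratio scaling. BRCA1, the ubiquitin ligase that acts with BARD1, rose from 47.2 ± 1.14 TPM to 78.1 ± 10.8 TPM at D3 (SD, n = 3 each), and the helicase BRIP1 from 17.4 ± 1.49 TPM to 33.3 ± 6.46 TPM. BRIP1 stayed at 33.1, 32.5 and 31 TPM at D14 and 30.7, 33.5 and 30.3 TPM at D28. BARD1 was not called at any of these times, with log2 fold changes of 0.086, 0.10 and 0.011 (SE 0.14).

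**Figure D2:**
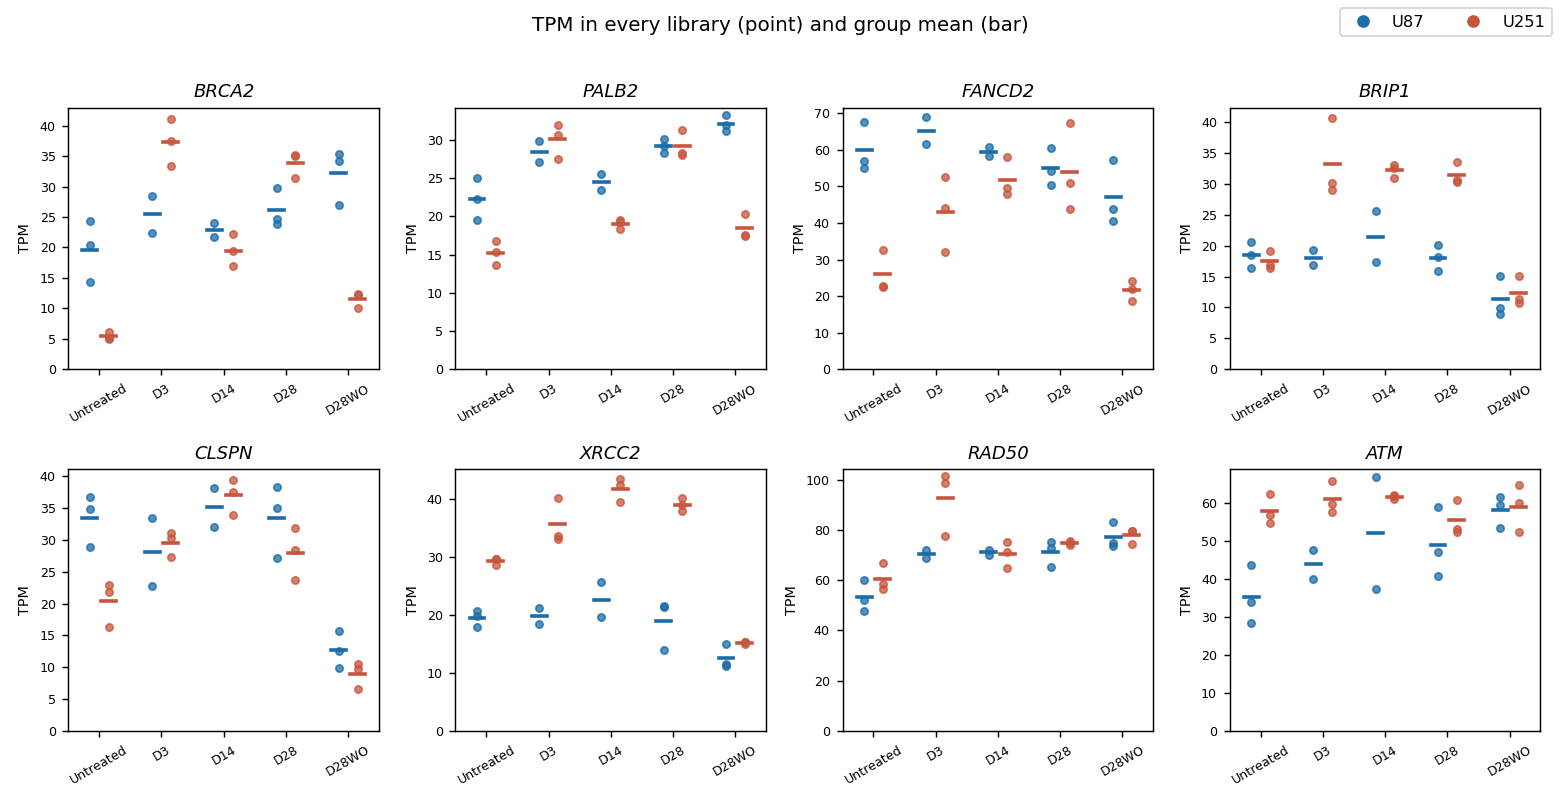
TPM of 8 of the genes in every library (points) with the group mean (bar), for the 5 groups on the x axis and both lines. In U251, BRCA2 stood at 4.94 to 6.09 TPM in Untreated and at 33.3 to 41.2 TPM at D3, and CLSPN fell to 6.52 to 10.5 TPM at D28WO.

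The FANCD2 and FANCI pair rose at all 3 times in U251. FANCD2 had 22.5, 22.7 and 32.7 TPM in Untreated, 52.7, 32.1 and 44 TPM at D3, 49.7, 58 and 48 TPM at D14, 43.9, 67.3 and 51 TPM at D28 and 18.7, 22 and 24.1 TPM at D28WO. At D3 the lowest treated library lay just below the highest Untreated one, and at D14 and D28 all treated libraries were higher. The log2 fold change was 0.99 (SE 0.20, adjusted p = 0.00287) at D14 and 1.03 (SE 0.20, adjusted p = 8.62e-04) at D28. FANCI rose by less, from 73.5 ± 3.09 TPM to 108 ± 9.35 TPM at D14, a log2 fold change of 0.55.

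Of the 8 core complex genes, 1 was called higher at D3 (beside 24.9% of all genes) and 3 at each of D14 and D28 (beside 13.8% and 25.9%). FANCM, the translocase that anchors the complex, was the one called at D3 (log2 fold change 0.61, SE 0.16, adjusted p = 0.00731) and was called at D14 and D28 too. FANCA, the scaffold of one subcomplex, was called only at D14 (0.65), and FANCF and FANCG, which connect the subcomplexes, only at D28 (0.43 and 0.47). FANCB, the partner of FANCL, had 22.2, 22.1 and 27.7 TPM in Untreated, 26.3, 23.6 and 26.8 TPM at D3, 52.5, 61.5 and 54.2 TPM at D14, 38.7, 43.8 and 21.7 TPM at D28 and 10.0, 6.44 and 24 TPM at D28WO. Its D14 libraries lay above all others, with a log2 fold change of 1.19 (SE 0.34, adjusted p = 0.0228), and its D28 and D28WO libraries were spread widely. Leaving out Untreated replicate 1 or 2 or D14 replicate 2 or 3 took the D14 call of FANCB away (adjusted p from 0.0562 to 0.0704, with log2 fold changes of 1.13 to 1.22). FANCC, FANCE and FANCL were not called at D3, D14 or D28, with log2 fold changes between -0.27 and 0.32.

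Of the paralog group, which stabilises the protein filament on the exposed strand, 3 of 5 were called higher at D3, 2 at D14 and 4 at D28. Of all genes, 24.9%, 13.8% and 25.9% were called higher at these times. XRCC3 had 39.3, 41.3 and 32.3 TPM in Untreated, 92.2, 54.5 and 79.3 TPM at D3, 67.6, 68.1 and 72.6 TPM at D14, 76.6, 72.3 and 67.4 TPM at D28 and 51.4, 41.5 and 45.7 TPM at D28WO. All 9 exposed libraries lay above the Untreated ones, with a log2 fold change of 0.96 (SE 0.15, adjusted p = 2.06e-04) at D3. Of the exonic bases of XRCC3, 76.7% also lie in exons of KLC1 on the other strand, and the strand setting of the counting is not given in the sources used here, so reads of these genes may not have been told apart. The log2 fold change of KLC1 itself was -0.22 at D3, -0.22 at D14 and -0.40 at D28. XRCC2 rose from 29.2 ± 0.611 TPM to 41.8 ± 2.05 TPM at D14 (log2 fold change 0.50, SE 0.082, adjusted p = 7.24e-04). RAD51C, the most abundant of the 35, rose by 0.20 at D3 and 0.18 at D28 on the log2 scale, RAD51B was called only at D28 (0.86, SE 0.31, adjusted p = 0.0415), and RAD51D was not called at any time.

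Among the factors that assist strand exchange, RAD51AP1, which stimulates strand invasion, had 33.7, 27.3 and 28.6 TPM in Untreated, 68, 43.2 and 44.4 TPM at D3, 49.3, 58.1 and 55.2 TPM at D14, 63.3, 53.1 and 60.6 TPM at D28 and 24.1, 35.1 and 21 TPM at D28WO. All 9 libraries of D3, D14 and D28 lay above the Untreated ones, and the log2 fold change was 0.96 (SE 0.19, adjusted p = 9.63e-04) at D28. The DNA translocases differed in time. RAD54B was highest at D3 (44.3 ± 8.58 TPM against 23.4 ± 2.44 TPM, log2 fold change 0.88), and RAD54L was called only at D14 (0.71) and D28 (0.51). RAD54B shares 66.0% of its exonic bases with FSBP on the same strand, and FSBP had a log2 fold change of 0.69 at D3, so the share of RAD54B in its reads is uncertain.

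The genes of end resection and dissolution were all called higher at D3 in U251, 6 of 6 (beside 24.9% of all genes), and 4 of 6 at each of D14 and D28 (beside 13.8% and 25.9%). NBN, the subunit that recruits ATM to breaks, rose from 61.6 ± 3.59 TPM to 107 ± 2.59 TPM at D3 (log2 fold change 0.79, SE 0.067, adjusted p = 6.40e-07). RAD50, the clamp of the same complex, had 58.6, 56.4 and 66.8 TPM in Untreated, 101, 77.6 and 98.6 TPM at D3, 71.2, 64.8 and 75.3 TPM at D14, 75.4, 74.7 and 74 TPM at D28 and 79.5, 79.4 and 74.5 TPM at D28WO, and MRE11, the nuclease, rose by 0.51, 0.52 and 0.49 on the log2 scale at the 3 times. RAD50 shares 76.9% of its exonic bases with other annotated transcripts, chiefly a readthrough gene (ENSG00000283782) that was not called at D3, D14 or D28. EXO1, an exonuclease of S phase, rose from 42.1 ± 4.22 TPM to 72.2 ± 12.3 TPM at D3 and 73.3 ± 9.61 TPM at D14 but was not called at D28 (51 ± 6.61 TPM, log2 fold change 0.27, SE 0.17, adjusted p = 0.238). BLM, the helicase that dissolves joint molecules, was called at all 3 times (up to 0.87 at D28), and RBBP8, the cofactor that starts resection, only at D3 (0.34).

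Among the checkpoint genes of U251, ATR, the kinase of stalled forks, rose from 28.1, 27.5 and 23.4 TPM to 47.4, 44.1 and 47.6 TPM at D3, when all 3 libraries lay above Untreated, with a log2 fold change of 0.80 (SE 0.13, adjusted p = 2.97e-04). It was 38.1, 30.6 and 29.9 TPM at D14, which was not called, 37.6, 40.3 and 41.2 TPM at D28, which was, and 43.8, 29.1 and 33.9 TPM at D28WO. ATM, the kinase of double-strand breaks, was not called in any U251 comparison, with log2 fold changes of 0.074, 0.090 and -0.065 (SE 0.088) at D3, D14 and D28. TOPBP1, which activates ATR, rose from 66.6 ± 3.27 TPM to 114 ± 19.3 TPM at D3 and was called at D14 and D28 too. CHEK2 was called at D3 (0.45) and D28 (0.72), and CHEK1 only at D14 (0.43). CLSPN, the adaptor that brings CHEK1 to ATR, had 21.8, 22.9 and 16.3 TPM in Untreated, 31.1, 30.3 and 27.3 TPM at D3, 34, 39.4 and 37.6 TPM at D14 and 28.4, 23.7 and 31.9 TPM at D28, all treated libraries being higher than Untreated (log2 fold change 0.84, SE 0.17, adjusted p = 0.00293 at D14).

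Between D3 and D14 of U251, and between D14 and D28, the shares of the 35 genes called in either direction were near those of all genes. BRCA1, BRCA2, PALB2, RAD50, NBN and ATR were called lower at D14 than at D3, and FANCA, FANCB, FANCC and RAD54L higher, that is 6 and 4 of 35 beside 12.6% and 12.8% of all genes. BRCA2 changed by -0.91 (SE 0.13, adjusted p = 1.83e-04) and NBN by -0.52 (SE 0.067, adjusted p = 7.69e-05) on the log2 scale. FANCB was the gene beyond 2-fold (1.10, SE 0.34, adjusted p = 0.0287), when 3.19% of all genes were called higher and beyond 2-fold, and its call was lost without any one of the 3 D3 or the 3 D14 libraries. Between D14 and D28, BRCA2 (0.77), PALB2 (0.59) and NBN (0.34) were called higher, and FANCA (-0.45), FANCC (-0.55) and EXO1 (-0.51) lower, beside 11.3% and 9.48% of all genes. Both comparisons share the D14 libraries, in which the IFN-γ response genes were lower than at D3 and D28, and the part of that in these changes was not tested.

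The U251 libraries labelled D28WO held less RNA of most of these genes than those of D28: 26 of the 35 genes were called lower and none higher (background 18.8% lower, 10.3% higher), and 12 of them fell by more than 2-fold, as 8.14% of all genes did. Without D28WO replicate 1 there were 8 beyond 2-fold. The median log2 fold change of the 35 was -0.74, and that of all genes was -0.12. The 12 were FANCB, FANCM, FANCD2, FANCI, BRCA2, BRIP1, XRCC2, RAD51AP1, EXO1, BLM, CHEK2 and CLSPN. CLSPN changed by -1.56 (SE 0.17, adjusted p = 1.43e-05), BRCA2 by -1.48 (SE 0.13, adjusted p = 2.34e-06), XRCC2 by -1.31 (SE 0.082, adjusted p = 1.49e-07) and BRIP1 by -1.30 (SE 0.14, adjusted p = 1.41e-05) on the log2 scale. FANCD2 changed by -1.27, EXO1 by -1.17, RAD51AP1 by -1.14, BLM by -1.13, FANCI by -1.11, CHEK2 by -1.04 and FANCM by -1.02. XRCC2 held 37.9, 39 and 40.1 TPM at D28 and BRIP1 10.6, 15 and 11.3 TPM at D28WO. Neither overlapped between the groups. For FANCI the D28 libraries held 95.8, 108 and 110 TPM and the D28WO libraries 38.4, 57.3 and 49.3 TPM, and for CHEK2 30.4, 30.2 and 43.1 TPM and 14.7, 18.6 and 15 TPM. EXO1 held 52.9, 56.5 and 43.7 TPM and 17.1, 22.1 and 28.1 TPM, BLM 37.1, 36.2 and 39.2 TPM and 17.4, 13.6 and 19.2 TPM, and FANCM 20.8, 16.6 and 20.3 TPM and 7.57, 9.24 and 10.1 TPM. In each of these 5 genes every D28WO library was below every D28 library. FANCB changed by -1.43 (SE 0.34, adjusted p = 0.00601), and its highest D28WO library lay above its lowest D28 library. The 9 genes not called were FANCE, FANCF, RAD51B, RAD51D, RAD54B, RAD50, RBBP8, ATM and ATR.

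**Figure D3:**
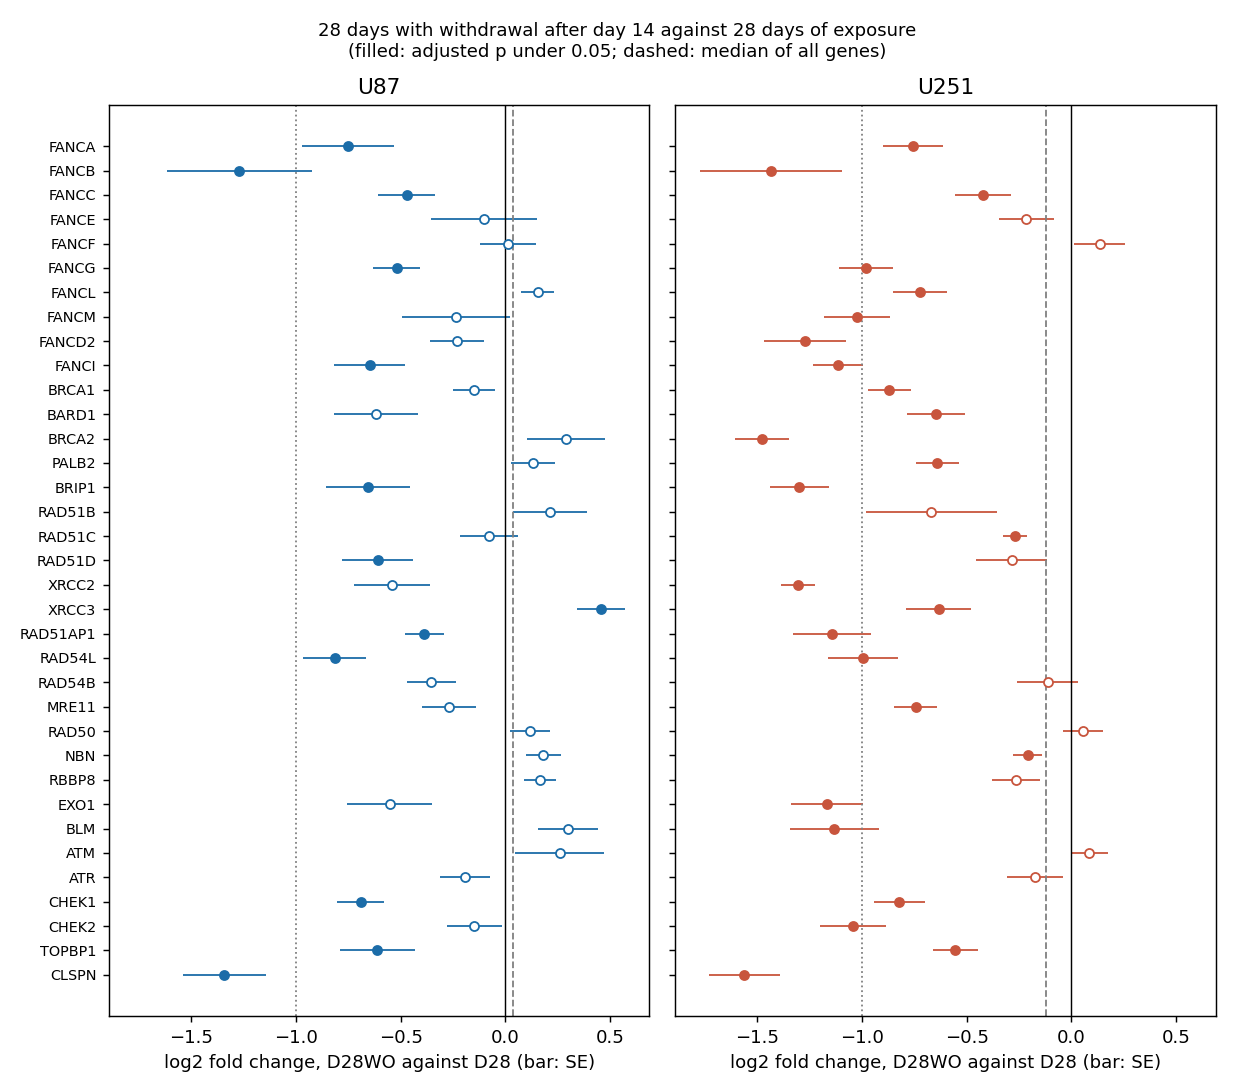
Log2 fold change of D28WO against D28 (x axis, bars are standard errors) for each of the 35 genes in U87 and U251; filled points were called, the dashed line is the median of all genes and the dotted line marks a 2-fold fall. In U251 12 filled points lie beyond the dotted line, and in U87 CLSPN and FANCB do.

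Against Untreated, the U251 libraries labelled D28WO had 14 genes called lower and 5 higher (background 13.4% lower, 14.3% higher), and the median of the 35 was -0.25, beside 0.015 over all genes. CLSPN fell beyond 2-fold, as 3.38% of all genes did, from 21.8, 22.9 and 16.3 TPM to 10.5, 6.52 and 9.70 TPM, without overlap and with a log2 fold change of -1.12 (SE 0.17, adjusted p = 2.03e-04). XRCC2 fell from 29.6, 29.6 and 28.5 TPM to 15.3, 15.2 and 15 TPM (-0.90, SE 0.082, adjusted p = 1.90e-06), and EXO1, also called lower, had -0.90. FANCB had -0.97 (adjusted p = 0.0479), with overlapping groups, and was no longer called without any single Untreated library or without D28WO replicate 1 or 2. The number beyond 2-fold was 0 without D28WO replicate 2, 4 without D28WO replicate 3 and 2 without Untreated replicate 2. The others called lower were FANCA, FANCC, FANCG, FANCL, FANCI, BRCA1, BARD1, BRIP1, RAD54L and CHEK1, from -0.74 for CHEK1 to -0.30 for BRCA1. The 5 called higher were BRCA2 (0.97, SE 0.13, adjusted p = 6.77e-05), FANCF (0.57), ATR (0.40), NBN (0.39) and RAD50 (0.36). FANCF held 14.4, 13.8 and 11.9 TPM in Untreated and 21, 20.6 and 19 TPM at D28WO, with no overlap. ATR was no longer called without Untreated replicate 2 or 3 or without D28WO replicate 1 or 3.

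In U87 the same genes changed little during exposure. At D3, RAD50 was called higher, 1 of 35 (background 12.4% higher, 4.28% lower). At D14 it was RAD50 and ATR (background 4.14% higher, 1.02% lower), and at D28 RAD50, ATR, FANCF, CHEK2 and PALB2 (background 17.2% higher, 6.55% lower). None was called lower at these times, when 0, 0 and 1 had an unadjusted p under 0.05 in that direction. At D28 none of these genes was called with median-ratio size factors, and 3 others were called lower (EXO1, RAD51AP1 and RBBP8). FANCF, CHEK2 and ATR kept positive log2 fold changes there (0.30, 0.29 and 0.25). The medians of the 35 were 0.038, 0.11 and 0.011, each below the median of all genes (0.20, 0.15 and 0.19), above which 9, 15 and 10 of the 35 lay. The sign of these medians depended on scaling: quantile normalization and median-ratio size factors, which bring the median of all genes near 0, turned those of D3 and D14 negative, and median-ratio factors also that of D28 (-0.18). No gene was called at D14 against D3 (background 1.47% higher, 3.32% lower) or at D28 against D14 (2.94% and 1.12%) with limma, and 3 of 35 had an unadjusted p under 0.05 in each.

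RAD50 had 47.6, 51.9 and 59.9 TPM in Untreated U87 cells, 71.8 and 68.6 TPM at D3, 72.1 and 70.0 TPM at D14, 65, 72.7 and 75.2 TPM at D28 and 83.3, 74.6 and 73.5 TPM at D28WO. Every treated library lay above every Untreated one, with a log2 fold change of 0.40 (SE 0.11, adjusted p = 0.0246) at D3 and 0.41 (SE 0.094, adjusted p = 0.00934) at D28. Of the exonic bases of RAD50, 76.9% are shared with other annotated transcripts, chiefly the readthrough gene ENSG00000283782. That gene was not called in any U87 comparison with Untreated, and how reads were divided between them was not tested. ATR had 37.1, 42 and 32.6 TPM in Untreated, 52.6 and 56.8 TPM at D14 and 43.6, 53.4 and 55.6 TPM at D28, a log2 fold change of 0.55 (SE 0.13, adjusted p = 0.0412) at D14. CHEK2 had 61.8, 60.9 and 42.5 TPM in Untreated and 81, 74 and 73.1 TPM at D28 (0.48, SE 0.13, adjusted p = 0.0217), and FANCF 19.6, 17.5 and 13.9 TPM and 22.7, 22.9 and 26.4 TPM (0.48, SE 0.13, adjusted p = 0.0233). The D28 libraries of ATR, CHEK2 and FANCF did not overlap with Untreated. These calls were fragile: leaving out 1 library took away that of RAD50 at D3 in 4 of 5 cases and left 0 or 1 call at D14, and with only the 2 compared groups in a fit no gene was called at D3, D14 or D28.

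In the U87 libraries labelled D28WO, 15 of the 35 genes were called lower than in Untreated and 9 higher (background 13.4% lower, 28.6% higher). The median of the 35 was -0.29, while that of all genes was 0.25. The split moved with scaling, to 21 lower and 1 higher with quantile normalization and to 19 lower and 2 higher with median-ratio factors. These scalings brought the median of all genes to -0.0099 and 0.065, and the shares of all genes called under them were not counted. CLSPN, FANCB and EXO1 fell and lay beyond 2-fold, as 2.12% of all genes did. CLSPN went from 34.8, 36.7 and 28.8 TPM to 9.80, 12.6 and 15.7 TPM (-1.35, SE 0.20, adjusted p = 2.28e-04), EXO1 from 62.4, 65.8 and 67.1 TPM to 24.3, 33.5 and 40.3 TPM (-1.001, SE 0.20, adjusted p = 0.00203) and FANCB from 53.9, 31.3 and 50.2 TPM to 16.1, 9.46 and 28.2 TPM (-1.37, SE 0.35, adjusted p = 0.00745). None of these 3 genes had overlapping groups. The next largest falls were RAD54L (-0.90), TOPBP1 (-0.73), BRIP1 (-0.69) and FANCI (-0.68), and FANCA, FANCC, FANCG, FANCD2, BARD1, XRCC2, RAD51AP1 and CHEK1 made up the rest. Some of these genes share exons with a neighbour: CHEK1 13.4% of its exonic bases, with STT3A on the same strand and a transcript on the other (ENSG00000288907), FANCA 19.6% with ZNF276 and RAD54L 19.9% with LRRC41, both on the other strand. STT3A was itself called lower (-0.53 in U87 and -0.35 in U251 at D28WO), while ZNF276 (0.98) and LRRC41 (0.41) were called higher in U87, and how reads were divided between them was not tested.

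The 9 genes called higher there were ATM, BRCA2, RAD51B, RAD50, PALB2, FANCF, XRCC3, BLM and NBN. ATM had 43.5, 28.4 and 33.8 TPM in Untreated and 61.6, 53.3 and 59.4 TPM at D28WO (0.72, SE 0.21, adjusted p = 0.0163), BRCA2 had 20.3, 24.3 and 14.3 TPM and 34.3, 35.4 and 27 TPM (0.71, SE 0.19, adjusted p = 0.00932), and RAD51B had 39.8, 35.2 and 31.9 TPM and 68.8, 44.3 and 55.4 TPM (0.62, SE 0.18, adjusted p = 0.0139). The groups did not overlap in these genes. ATM was no longer called without Untreated replicate 2 or D28WO replicate 1 (adjusted p = 0.0646 and 0.0535), nor RAD51B without Untreated replicate 3 or D28WO replicate 1 (0.0547 and 0.0643). With quantile normalization only RAD50 of the 9 stayed called higher, and with median-ratio factors BRCA2 and PALB2. The 11 genes not called were FANCE, FANCL, FANCM, BRCA1, RAD51C, RAD51D, RAD54B, MRE11, RBBP8, ATR and CHEK2. Against D28, 12 genes were called lower and XRCC3 higher (0.46), beside 8.44% and 9.9% of all genes, and CLSPN (-1.34, SE 0.20, adjusted p = 9.82e-04) and FANCB (-1.27, SE 0.35, adjusted p = 0.0249) fell beyond 2-fold, as 2.42% of all genes did. FANCB was no longer called there without D28 replicate 1 or 2 or without D28WO replicate 1 or 2.

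The lines share no library, so their lists can be set side by side. Of the 15 genes called lower at D28WO against Untreated in U87 and the 14 in U251, 12 were in both (80% and 85.7% of the lists). Of all genes tested in both lines, 41.8% of those called lower in U87 were also called lower in U251, and the same share the other way round. Of the 35, 42.9% were called lower in U87 and 40% in U251, beside 13.4% of all genes in either line. These overlaps thus start from unlike shares and do not tell whether the 35 agreed between the lines more than other genes did. The 12 were FANCA, FANCB, FANCC, FANCG, FANCI, BARD1, BRIP1, XRCC2, RAD54L, EXO1, CHEK1 and CLSPN. FANCF, BRCA2, RAD50 and NBN were called higher in both (44.4% of 9 and 80% of 5), beside 30.4% and 58.2% of all genes. At D3 the 1 gene called higher in U87, RAD50, was among the 22 of U251, beside 47.2% of all genes called higher in U87. At D14 neither of the 2 was among the 21 of U251, beside 20.5%. At D28 all 5 genes called higher in U87 were among the 24 of U251, of which they made up 20.8%, beside 45.2% and 30% of all genes. With 24 of 35 genes called in U251, a large overlap there says little. Whether the changes differed between the lines was not tested.

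A wider list of 59 other genes of these pathways was tested too, and its U251 changes were in both directions. At D3, 29 were called higher and 10 lower (49.2% and 16.9%, beside 24.9% and 16% of all genes). At D14 it was 25 and 2 (42.4% and 3.39%, beside 13.8% and 7.31%), at D28 28 and 6 (47.5% and 10.2%, beside 25.9% and 14.7%) and at D28WO 11 and 13 (18.6% and 22%, beside 14.3% and 13.4%). POLQ, the polymerase of the alternative end-joining route, rose from 9.27 to 29.5 TPM at D3 (1.57, SE 0.11, adjusted p = 5.50e-08) and by 1.59 and 1.56 on the log2 scale at D14 and D28. RAD52, the annealing factor, rose by 1.20 at D3, and HROB, which loads the MCM8 and MCM9 helicase, by 1.33 at D14 and 1.45 at D28. BABAM2, a scaffold of the BRCA1-A complex, fell from 82.5 to 51.2 TPM at D3 (-0.68, SE 0.075, adjusted p = 7.72e-06) and was also called lower at D14 (-0.40) and D28 (-0.46). FAAP100, a core complex subunit, was lower at D3 (-0.62) and D28 (-0.49), and ZSWIM7, a partner of the paralog group, at D14 (-0.26). In the U251 libraries labelled D28WO the largest falls were those of MCM8 (-0.84) and the nuclease DNA2 (-0.58), and the largest rises those of RMI2, a partner of BLM (0.61), and the fork translocase SMARCAL1 (0.51).

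In U87, 8 of these 59 genes were called higher and 4 lower at D3 (13.6% and 6.78%, beside 12.4% and 4.28% of all genes). At D14 it was 1 and 2 (1.69% and 3.39%, beside 4.14% and 1.02%), at D28 5 and 8 (8.47% and 13.6%, beside 17.2% and 6.55%) and at D28WO 10 and 17 (16.9% and 28.8%, beside 28.6% and 13.4%). The shares called higher were thus near or below those of all genes. UBE2T, the enzyme that supplies ubiquitin to FANCL, was lower in the libraries labelled D28WO, going from 155 to 85.6 TPM (-0.84, SE 0.093, adjusted p = 3.32e-05). UBE2T was also lower at D28 (-0.39), as was RPA3, a subunit of the single-strand binding protein (-0.47). The largest rises in the libraries labelled D28WO were those of SHLD1, a shieldin subunit that limits resection (0.95), and the helicase WRN (0.92), which was already higher at D3 (0.72). RAD9A, of the checkpoint clamp, was higher at D3, D14 and D28 (0.66, 0.60 and 0.62), and TP53BP1, which restrains resection, at D28 (0.59). The lower genes at D3 were led by SEM1, a BRCA2 partner (-0.42), and BABAM1 (-0.38), and those at D14 were ERCC1, of the crosslink-cutting nuclease (-0.36), and BABAM1 (-0.35).

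Since many of the 35 genes are transcribed in S phase, the other S phase and G2/M genes of a standard cell-cycle list are given beside them. Of the 35, RAD51AP1, EXO1, BLM and CLSPN are in the S phase list and were left out of it, leaving 39 genes, and none is in the G2/M list of 54. In U251 the S phase genes had medians of 0.043 at D3, 0.26 at D14 and -0.024 at D28, where the 35 had 0.51, 0.43 and 0.47. The G2/M genes had 0.10, 0.60 and 0.23. In U87 the S phase genes had -0.21, -0.034 and -0.19 at these times, with 1, 0 and 6 of 39 called lower, and the G2/M genes -0.22, -0.050 and -0.21, with 11, 1 and 18 of 54 called lower, where the 35 had 0.038, 0.11 and 0.011. No gene of either list was called higher in U87 at D3, D14 or D28. In the libraries labelled D28WO the S phase genes were lower than in Untreated in both lines, with medians of -0.91 in U87 (34 of 39 called lower) and -0.69 in U251 (31 of 39), beside -0.29 and -0.25 for the 35. The G2/M genes had -0.42 and -0.043. Against D28, the S phase genes had -0.76 in U87 and -0.57 in U251, with 33 of 39 called lower in each line, the G2/M genes -0.20 and -0.25, with 21 of 54 called lower in each line, and the 35 -0.24 and -0.74. The part of cell-cycle position in the changes of the 35 was not tested.

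**Figure D4:**
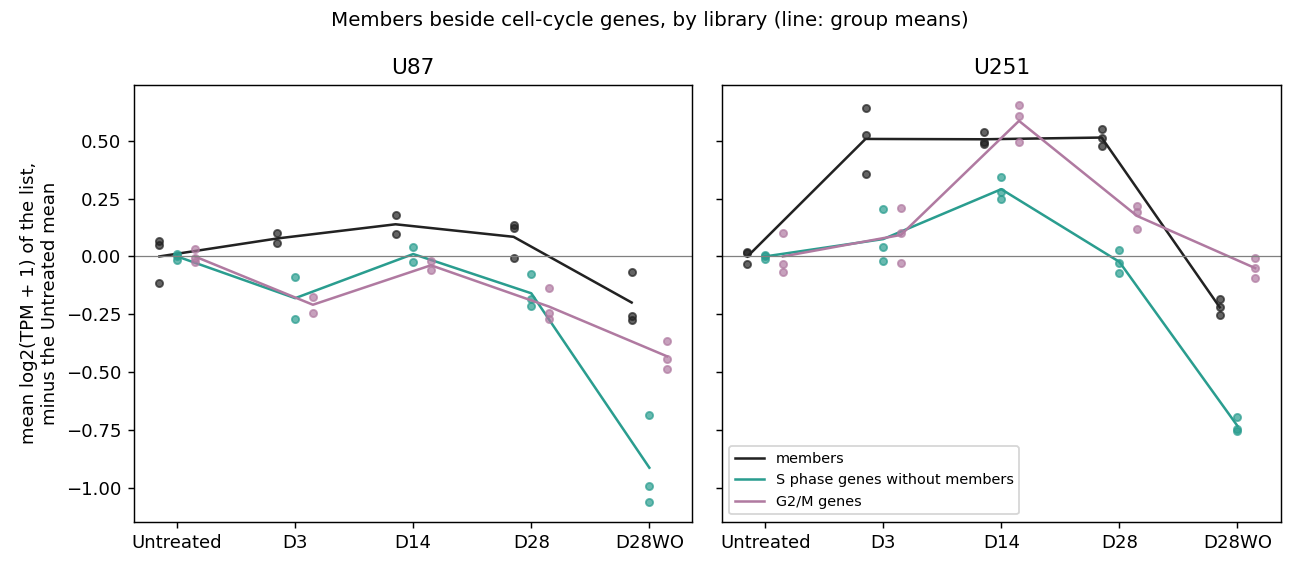
Mean log2(TPM + 1) over the 35 genes, the 39 S phase genes and the 54 G2/M genes in each library, less the Untreated mean of the same list (y axis), by group (x axis) in U87 and U251. In U251 the 35 genes stood above Untreated at D3, D14 and D28 while the S phase genes lay nearer 0 at D3 and D28, and in both lines the S phase genes were lowest at D28WO.

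The 7 genes with an E2F match in their promoter window were all among those called lower at D28WO against Untreated in U87, as were 7 of the 25 without a match and 13.4% of all genes. In U251, 5 of the 7 and 8 of the 25 were called lower in that comparison, beside 13.4% of all genes. At D28WO against D28, 7 of the 7 and 17 of the 25 were called lower in U251 (18.8% of all genes) and 4 and 7 in U87 (8.44%). During exposure in U251, 5 of the 7 and 14 of the 25 were called higher at D3 (24.9% of all genes), 6 and 12 at D14 (13.8%), and 4 and 17 at D28 (25.9%). At D14 against D3, 2 of the 7 and 2 of the 25 were called higher there (12.8% of all genes) and 0 and 5 lower (12.6%). At D28 against D14, 3 and 0 were called lower (9.48%) and 0 and 2 higher (11.3%). None of the 7 was called higher in any U87 comparison with Untreated. Of the 25, 1, 2, 5 and 8 were called higher there at D3, D14, D28 and D28WO, beside 12.4%, 4.14%, 17.2% and 28.6% of all genes. This split was made after the values had been seen, and no test was run on it.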

How the data were processed

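RNA was sequenced (TruSeq RNA kit, Illumina HiSeq, paired-end reads) from cultures of U87-MG and U251-MG. The submitters' processing notes name FastQC, Trim Galore, STAR, featureCounts, edgeR and the build GRCh38. The authors deposited 1 table of TPM values per line, in which each library sums to 1000000. How TPM was computed, and the strand setting, are not given in the sources used here. The study's methods state a minimum number of reads per sample, but the tables do not show the depth of each library. Of the U87 columns, 2 have a common name and were not used, which left 13 U87 and 15 U251 libraries. Within a group, pairs of libraries had a Pearson correlation of 0.960 to 0.974 in U87 and 0.959 to 0.974 in U251 over the genes tested (log2 scale). Libraries were grouped by their labels.

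Values were analysed as log2(TPM + 1), for genes averaging 0.5 TPM or more in a line, with limma 3.58.1 in R 4.3.3 (linear model with the 5 groups of a line in one fit, empirical Bayes with a trend, two-sided tests, Benjamini-Hochberg adjustment over all genes tested). Fold changes on this scale understate those of low genes. A gene was called at an adjusted p under 0.05, and calls were counted again with an absolute log2 fold change over 1. In each line 7 comparisons were made. The lines were never fitted together. The calculation was tested on simulated data. Full values are given for the 3 largest falls and rises of each comparison with Untreated and for genes beyond 2-fold, and of the wider list the 2 largest falls and rises are named, except 1 gene that is not reported here. The 35 genes, the other lists and these rules were chosen with earlier results of these data known. Alternatives were a pseudocount of 0.1, no filter or one at 1 TPM, quantile and median-ratio scaling, only the 2 compared groups, array weights, a replicate block and leaving out each library. Promoter sequences and start sites come from RefSeq (GRCh38.p14), overlaps of exons from the GRCh38 annotation, and the cell-cycle lists from Seurat 5.3.0.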

Additional observations from a re-analysis of the deposited data

Results flagged for a closer look

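In some genes a result stood out because every library of one group lay above every library of the group it was compared with in one line, and below in the other line. The difference between the lines was not tested. Such opposite ranges occurred in 6.77% of all 20473 genes tested in both lines at D3 (2 of the 35, 5.71%), 6.41% at D14 (1 of 35, 2.86%) and 6.22% at D28WO (1 of 35). At D28 there was none among the 35 (6.46% of all genes). At D28WO against D28 they occurred in 8.85% of all genes and in 4 of the 35 (11.4%), and at D14 against D3 in 6.58% and in 1 of the 35. At D28 against D14 it was 4.44% and none of the 35. With other scalings the medians of the 35 genes in U87 shift downwards. At D3, FANCM had a log2 fold change of -0.18 in U87 and 0.61 in U251, and FANCI had -0.21 and 0.37. At D14, EXO1 had -0.18 in U87 and 0.78 in U251. At D28WO, RAD54B had -0.18 in U87 and 0.35 in U251. It shares 66.0% of its exonic bases with FSBP on the same strand, which had 2.09 in U87 and 0.44 in U251, so what its values measure is uncertain. The U251 values of FANCM, FANCI and EXO1 were called in limma, and neither the RAD54B value of U251 nor any of the 4 U87 values was. With quantile and with median-ratio scaling RAD54B was called lower at D28WO in U87. At D28WO against D28, XRCC3 had 0.46 in U87 and -0.63 in U251, both called, PALB2 0.13 and -0.64, NBN 0.18 and -0.21, and RBBP8 0.17 and -0.27. Of the latter 3, PALB2 and NBN were called in U251, and no U87 value was. At D14 against D3, ATR had 0.26 in U87, which was not called, and -0.49 in U251, which was. XRCC3 shares most of its exonic bases with KLC1. In U87, D3 and D14 hold 2 libraries each.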

How the results depend on the processing

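In U251 the numbers of the 35 genes called against Untreated and at D28WO against D28 stayed within 1.5 times under every alternative. Single genes were followed only for the 3 largest falls and rises against Untreated and for those beyond 2-fold. None of these changed direction in either line in the comparisons concerned. The shares of all genes called were not counted under the alternatives. In U87 the calls at D3 and D14 did not last. At D3, quantile scaling, median-ratio scaling, a fit of only the 2 compared groups and the replicate block each left 0 genes, and at D14 so did these and no filter. At D28, 1 gene was called with quantile scaling, 3 with median-ratio scaling (all lower) and 0 in the fit of the 2 groups, and at D28WO against D28 that fit left 7. Of the U87 medians, quantile and median-ratio scaling gave -0.077 and -0.15 at D3, -0.034 and -0.063 at D14, and -0.53 and -0.50 at D28WO against Untreated. Median-ratio scaling gave -0.18 at D28, and quantile scaling gave -0.33 at D28WO against D28. At D14 against D3 of U251, 6 of the 35 genes were called without a filter and 5 in the fit of the 2 groups.

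Of the 59 other genes, those called in U87 at D3 numbered 7 without a filter, 5 with quantile scaling and 2 in the fit of the 2 groups, and at D14 they numbered 0 in these 3 settings and with the block, and 1 with median-ratio scaling. The fit of the 2 groups left 5 at D28 and 8 at D28WO against D28, where quantile scaling gave 20, and quantile scaling gave 1 at D28 against D14. In U251 that fit left 7 at D14 against D3. In U87 the fewer calls of the fit of the 2 groups come with fewer libraries to estimate the spread.

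Leaving out 1 library at a time gave, in U87, 0 to 2 of the 35 genes at D3, 0 to 1 at D14, 1 to 6 at D28 and 5 to 14 at D28WO against D28. The U87 medians ranged from 0.043 to 0.13 at D3, from -0.016 to 0.10 at D28, from -0.45 to -0.22 at D28WO, from 0.0028 to 0.10 at D14 against D3 and from -0.31 to -0.14 at D28WO against D28. In U251, 5 to 8 were called at D14 against D3. Of the 59 other genes, U87 had 2 to 12 at D3, 0 to 2 at D14, 0 to 1 at D14 against D3 and at D28 against D14, and 7 to 14 at D28WO against D28, and U251 had 15 to 22 at D28WO and 10 to 16 at D14 against D3.

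The numbers of the 35 genes beyond 2-fold ranged, without 1 library, from 2 to 4 at D28WO and 1 to 2 at D28WO against D28 in U87, and in U251 from 1 to 3 at D3, D14 and D28, 0 to 4 at D28WO and 8 to 13 at D28WO against D28, and were 0 at D14 against D3.

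The replicate numbers gave no sign of pairing the libraries: the deviations of same-numbered libraries from their group means had a mean correlation of 0.0041 in U87 and 0.00089 in U251, and no pair was above 0.1. With the replicate block, 20 genes were called at D28WO against Untreated and 10 at D28WO against D28 in U87. In U251 the block gave 22, 20, 23 and 16 against Untreated at D3, D14, D28 and D28WO, 9 at D14 against D3, 6 at D28 against D14 and 26 at D28WO against D28. The cause of these shifts was not tested. The tables hold no counts, so the counting error of low genes was not computed.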
